A study of Mus musculus with 16 samples.

Results

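The genes H2-K1, H2-D1, B2m, Tap1, Tapbp, Psmb8, Psmb9, Psmb10, Nlrc5 and Cd74, a set of 10 mouse genes of MHC and antigen presentation, were read across 5 populations of hematopoietic stem cells (HSCs). The genes were taken by name from a table of read counts for 46078 genes, all 10 were found there, and all 10 were among the 13661 genes with enough reads to be tested. The study asked how HSCs that differ in surface MAC-1, the integrin whose alpha chain is encoded by Itgam, differ from each other before and after transplantation. All HSCs came from wild-type B6.SJL mice and were sorted from cKit-enriched bone marrow as live cells negative for CD3e, B220, Gr, NK1.1, Ter119 and CD48 and positive for cKit, Sca1 and CD150. Steady-state (SS) HSCs came from untreated mice, as MAC-1- (3 samples) and MAC-1low (3 samples) cells. The 4 week HSCs were recovered 4 weeks after 8000 LSK cells (lineage-negative, cKit+, Sca1+ progenitors) had been transplanted into recipients irradiated with 900 cGy, as MAC-1- (3 samples), MAC-1low (4 samples) and MAC-1+ (3 samples) cells. There was no SS MAC-1+ population, and transplantation, irradiation of the host and time cannot be told apart in a comparison of 4 week with SS HSCs. The labels do not say whether samples of a population came from separate mice, so p-values measure only the spread between these samples.

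MHC class I molecules are made by almost every nucleated cell. A heavy chain (H2-K or H2-D in this strain) pairs with the light chain beta-2 microglobulin (B2m) and holds a short peptide for CD8 T cells to read. The peptides are cut by the proteasome, in which the interferon-inducible subunits Psmb8, Psmb9 and Psmb10 can replace Psmb5, Psmb6 and Psmb7, are carried into the endoplasmic reticulum by the transporter of Tap1 and Tap2, and are loaded with the help of tapasin (Tapbp). Nlrc5 is a transactivator of class I genes. Class II molecules present peptides to CD4 T cells and are classically found on B cells, dendritic cells and macrophages, and Cd74 encodes the invariant chain that occupies their groove until peptide is loaded.

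The class I genes are known for compact promoters that carry a kappa B site, an interferon-stimulated response element and an SXY module, so the bases before the start sites of the heavy chains and of B2m are shown here. The RefSeq sequences (build GRCm38.p6) matched 8 of the 10 genes. The 250 bases upstream of the H2-K1 start, chr17:34000348-34000597 on the minus strand, held a kappa B match, the TGACGC of the X2 box and a CCAAT box read on the other strand, in capitals.
H2-K1: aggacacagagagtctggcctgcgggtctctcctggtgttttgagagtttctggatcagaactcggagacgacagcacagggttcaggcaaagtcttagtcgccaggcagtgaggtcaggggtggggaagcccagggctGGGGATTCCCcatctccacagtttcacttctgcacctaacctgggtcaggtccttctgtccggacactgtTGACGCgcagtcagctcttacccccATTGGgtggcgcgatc
For B2m, 240 bases upstream of its start, chr2:122147437-122147676 on the plus strand, held an interferon-stimulated response element (GAAA, any 2 bases, GAAA) and a CCAAT box on the other strand, in capitals.
B2m: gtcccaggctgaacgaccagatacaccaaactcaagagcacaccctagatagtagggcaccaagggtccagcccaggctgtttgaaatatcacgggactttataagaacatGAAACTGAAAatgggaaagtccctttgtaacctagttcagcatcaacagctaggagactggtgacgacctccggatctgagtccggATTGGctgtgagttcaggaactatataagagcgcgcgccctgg
H2-D1 is printed only as stretches of 30 bases, because part of the window lies in a transcribed leader in GENCODE M21. Its kappa B stretch, chr17:35262913-35262942 on the plus strand, differed from that of H2-K1, chr17:34000439-34000468 on the minus strand, at 1 of 30 bases.
H2-K1 kappa B: gcccagggctGGGGATTCCCcatctccaca
H2-D1 kappa B: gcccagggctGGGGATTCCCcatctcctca
The stretch from the X2 box to the CCAAT box, chr17:34000359-34000388 in H2-K1 and chr17:35262993-35263022 in H2-D1, differed at 7 of 30 bases.
H2-K1 X2 to CCAAT: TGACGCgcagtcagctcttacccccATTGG
H2-D1 X2 to CCAAT: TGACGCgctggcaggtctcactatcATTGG

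Among 32851 promoter windows of 250 bases searched on both strands, the kappa B motif of 10 bases in capitals above was found in 0.0852%, the response element in 2.98%, TGACGC in 6.12% and CCAAT in 33.8%. Of the 8 matched genes, the kappa B motif and TGACGC were found in H2-K1 and H2-D1 only. The strict pattern of the response element was found in B2m only. Looser forms of the response element were not searched, so the other genes, the heavy chains among them, are not shown to lack it. CCAAT was found in B2m, Tapbp, H2-K1, H2-D1, Psmb9 and Tap1. The windows of Psmb9 and Tap1 overlap, and their CCAAT matches are the same bases. Aligned without gaps at the kappa B match, the windows of H2-K1 and H2-D1 were identical at 166 of 190 bases, or 87.4%.

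In GENCODE M21 (GRCm38), 6 of the 10 genes lay on chromosome 17, in the MHC. These were Tapbp (33915899-33929292, plus strand), H2-K1 (33996017-34000347, minus strand), Psmb9 (34181987-34187764, minus strand), Tap1 (34187553-34197225, plus strand), Psmb8 (34197721-34201454, plus strand) and H2-D1 (35262730-35267499, plus strand). Psmb9 and Tap1 overlap at their first exons, and without strand information reads from the overlap cannot be assigned to either gene. B2m (chromosome 2, 122147686-122153083), Nlrc5 (chromosome 8, 94434356-94527272) and Psmb10 (chromosome 8, 105935735-105938444) lay elsewhere, as did Cd74 on chromosome 18. Of all 50-base windows in its transcript, H2-D1 shared 14.3% with another gene (most with H2-Q1, 7.40%), and H2-K1 shared 8.79% (most with H2-D1, 6.94%). Tapbp shared 2.00% and Tap1 0.861%, and the other 6 genes shared none.

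Total counts were 13781278 to 28580658 per sample. Levels are given as CPM, the counts of a gene per 1000000 counts of the sample, scaled by edgeR's TMM factors, and a gene was called when its adjusted p (edgeR quasi-likelihood test, Benjamini-Hochberg over all tested genes) was below 0.1, the threshold of the study. Itgam, read as a check of the labels, had 8.31, 30.0 and 3.80 CPM in the 4 week MAC-1+ samples and at most 4.36 CPM in any other sample. Its difference was not called (log2 fold change 4.54 against 4 week MAC-1-, adjusted p = 0.400). The list for this check held 2 genes, of which only 1, Itgam, was above 0 in that comparison, and 0 were called. All 6 genes of an HSC list (Kit, Ly6a, Slamf1, Procr, Mecom and Hlf) were detected in every sample. Of these, Procr, Mecom and Hlf were not markers of the sort. The summed level of the list was 529 to 696 CPM in 4 week MAC-1-, 1161 to 1573 CPM in both SS populations, 1375 to 1912 CPM in 4 week MAC-1low and 2069 to 3153 CPM in 4 week MAC-1+ HSCs. Platelet and megakaryocyte genes ran the other way, with a summed level of 4135 to 6661 CPM in 4 week MAC-1- and 136 to 186 CPM in 4 week MAC-1+ HSCs. Neutrophil genes summed to 23.8 to 70.3 CPM in 4 week MAC-1- HSCs and to 164, 953 and 6949 CPM in the 4 week MAC-1+ samples, the highest in replicate 3. Cd48, whose protein the sort excluded, had up to 133 CPM.

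B2m was by far the most abundant of the genes. Per kb of exon, the mean over all 16 samples was 10611 CPM for B2m, 429.7 CPM for H2-K1, 207 CPM for H2-D1, 130.2 CPM for Psmb8, 127 CPM for Cd74 and 117 CPM for Psmb10. Psmb9 followed at 38.9, Tapbp at 11.6, Nlrc5 at 8.67 and Tap1 at 6.86 CPM per kb. HSCs of all 5 populations thus held much more mRNA of the light chain than of either heavy chain, and little of the peptide transporter. Exon length joined all annotated exons of a gene. For some genes it far exceeded the longest coding transcript (3381 against 1628 bases for Psmb8, 5476 against 2953 for Tap1). The order of genes with near levels therefore depends on the annotation.

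At 4 weeks, comparing MAC-1+ to MAC-1- HSCs, the extremes of MAC-1 after transplantation, gave 2 called genes among the 10, Cd74 and H2-K1, both higher in MAC-1+ HSCs. Over all 13661 genes 3.25% were called, and 1.19% were called as higher. With an absolute log2 fold change above 1 required as well, Cd74 alone was called (2.47% of all genes). The 8 others of the set, among them the light chain, the transporter and the immunoproteasome, were not called. The median log2 fold change of the 10 genes was 0.26, with 9 of 10 above 0, against a median of 0.07 and 52.4% above 0 over all genes. In these bulk samples more mRNA per cell and a larger share of expressing cells cannot be told apart.

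**Figure D1:**
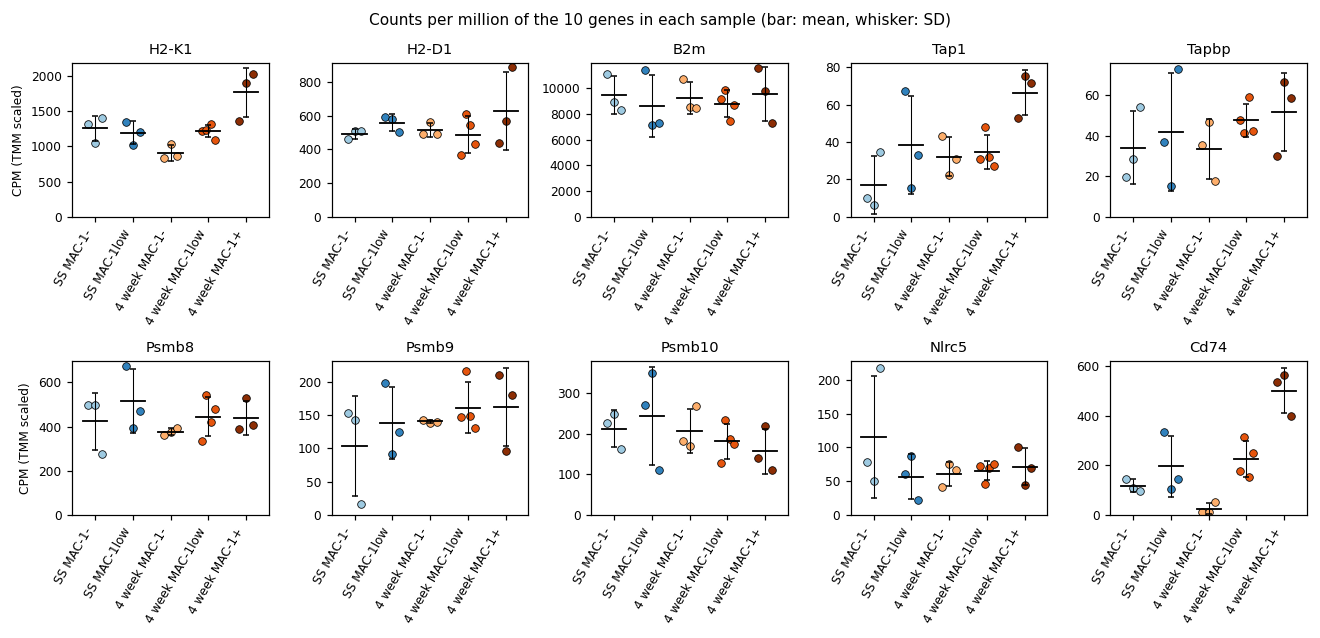
CPM of the 10 genes in each sample (points) of the 5 HSC populations, on linear axes that start at 0, with the mean as a bar and the SD as a whisker. The 4 week MAC-1+ samples lie above all 4 week MAC-1- samples for H2-K1, Tap1 and Cd74, while the populations overlap for B2m and Psmb8. Between these 4 week groups 21.7% of all genes were without overlap.

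H2-K1, a classical class I heavy chain, had 831, 1033 and 858 CPM in the 4 week MAC-1- samples, 1221, 1233, 1311 and 1095 CPM in MAC-1low, and 1364, 1895 and 2027 CPM in MAC-1+. The 3 groups of 4 week HSCs followed the order of MAC-1 without overlap. Over all genes, 10.8% were without overlap between MAC-1low and MAC-1- and 8.23% between MAC-1+ and MAC-1low, in either direction. The share of all genes with the 3 groups in order was not computed. Of these extremes, SS MAC-1- samples, at 1317, 1052 and 1395 CPM, overlapped only the 4 week MAC-1+ samples. SS MAC-1low samples, at 1348, 1021 and 1196 CPM, overlapped only the 4 week MAC-1- samples. Group means were 908 ± 109.9 CPM (SD, n = 3) in 4 week MAC-1-, 1215 ± 89.5 CPM (SD, n = 4) in 4 week MAC-1low and 1762 ± 351 CPM (SD, n = 3) in 4 week MAC-1+ HSCs.

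H2-K1 was 1.94-fold higher in MAC-1+ HSCs than in MAC-1- HSCs at 4 weeks (log2 fold change 0.96, SE 0.17, 95% interval 0.60 to 1.31, adjusted p = 0.00807). The call held when each of the 16 samples was left out in turn, with log2 fold changes of 0.88 to 1.11. It was missed when the fit held only the 6 samples compared (adjusted p = 0.103). The steps in between were not called, with a log2 fold change of 0.42 (SE 0.16, adjusted p = 0.565) for MAC-1low against MAC-1- and of 0.54 (SE 0.15, adjusted p = 0.535) for MAC-1+ against MAC-1low.

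H2-D1, the other classical heavy chain, was not called. It had 491, 566 and 492 CPM in 4 week MAC-1-, 367, 608, 544 and 431 CPM in MAC-1low and 438, 566 and 887 CPM in MAC-1+ samples. These groups overlapped, and the highest value came from the MAC-1+ sample with the most neutrophil mRNA, whose part in the value was not tested. The log2 fold change of MAC-1+ against MAC-1- was 0.29 (SE 0.23, 95% interval -0.21 to 0.78, adjusted p = 0.680), and -0.0088 without that sample. SS samples had 459 to 512 CPM (MAC-1-) and 503 to 595 CPM (MAC-1low).

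Within each sample the ratio of H2-K1 to H2-D1 counts is free of scaling between libraries. This ratio, added after the data were seen and not tested, was 1.69, 1.83 and 1.74 in 4 week MAC-1- samples. It was 3.33, 2.03, 2.41 and 2.54 in MAC-1low and 3.12, 3.35 and 2.29 in MAC-1+ samples, all above the MAC-1- samples. In SS HSCs it was 2.87, 2.05 and 2.74 in MAC-1- and 2.27, 1.75 and 2.38 in MAC-1low. When the counts of 15 class I heavy chain genes were summed to avoid reads split between relatives, the sum was called as higher in MAC-1+ HSCs (log2 fold change 0.74, adjusted p = 0.0304). H2-K1 and H2-D1 made up at least 77.9% of that sum.

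B2m, the light chain shared by all class I molecules, had 10709, 8593 and 8487 CPM in 4 week MAC-1-, 9177, 9907, 7449 and 8732 CPM in MAC-1low and 11579, 9801 and 7326 CPM in MAC-1+ samples. SS samples ranged from 8334 to 11130 CPM in MAC-1- and from 7147 to 11407 CPM in MAC-1low. All 5 populations overlapped, and the highest population mean was 1.11 times the lowest. The log2 fold change of MAC-1+ against MAC-1- at 4 weeks was 0.05 (SE 0.20, 95% interval -0.37 to 0.46, adjusted p = 0.973), an interval whose upper bound lies below the 0.96 of H2-K1. The difference between the genes was not tested.

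**Figure D2:**
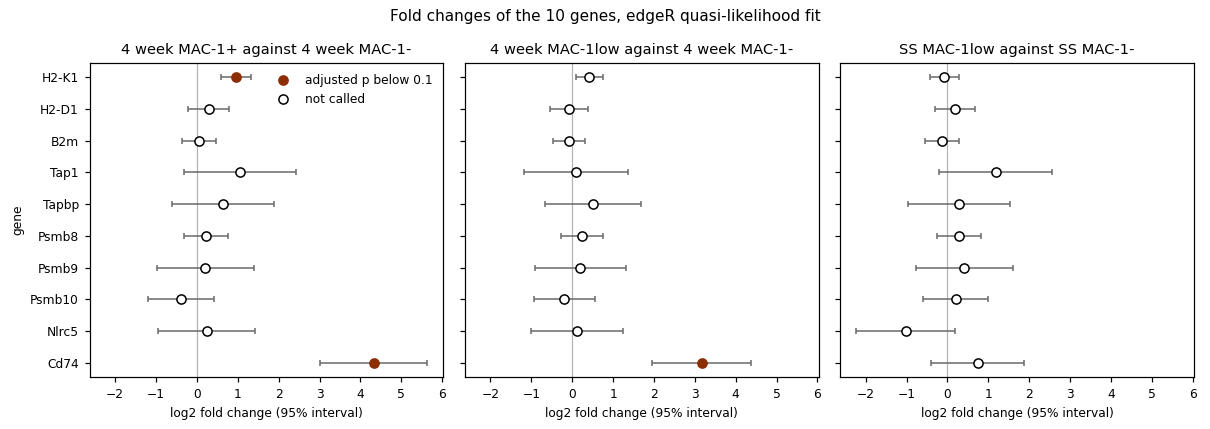
Log2 fold changes of the 10 genes (points) with their 95% intervals (lines) for 4 week MAC-1+ against MAC-1-, 4 week MAC-1low against MAC-1- and SS MAC-1low against SS MAC-1-. Filled points have an adjusted p below 0.1, which H2-K1 and Cd74 reached in the first comparison and Cd74 in the second.

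Tap1, a subunit of the peptide transporter, was among the scarcest of the set. It had 43.3, 22.2 and 31.0 CPM in 4 week MAC-1-, 30.8, 47.8, 32.2 and 27.3 CPM in MAC-1low and 52.7, 75.2 and 71.4 CPM in MAC-1+ samples. The MAC-1+ samples lay above all other 4 week samples. SS samples spread widely, with 10.3, 6.34 and 34.6 CPM in MAC-1- and 67.2, 15.7 and 33.1 CPM in MAC-1low. The log2 fold change of 1.05 for 4 week MAC-1+ against MAC-1- had an SE of 0.64 and was not called (adjusted p = 0.529). Groups without overlap were common, at 21.7% of all genes in this comparison, where H2-K1, Tap1 and Cd74 showed it.

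Tapbp, which bridges class I molecules to the transporter, had 17.8 to 46.8 CPM in 4 week MAC-1- and 30.1 to 66.3 CPM in 4 week MAC-1+ samples (log2 fold change 0.63, SE 0.59, adjusted p = 0.749). Its 4 week MAC-1low samples had 41.2 to 59.2 CPM, and its SS samples 15.4 to 72.8 CPM, so that every population overlapped every other.

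The immunoproteasome subunits showed no called difference along MAC-1 at 4 weeks. Psmb8, a catalytic subunit that takes the place of Psmb5, had 361, 376 and 393 CPM in MAC-1- and 387, 529 and 406 CPM in MAC-1+ samples (log2 fold change 0.23, SE 0.26, adjusted p = 0.812). Psmb9, which takes the place of Psmb6, had 144, 139 and 140.3 CPM in MAC-1- and 210.2, 96.1 and 180.1 CPM in MAC-1+ samples (log2 fold change 0.20, SE 0.56, adjusted p = 0.952). The 3 MAC-1- samples of Psmb9 were almost alike, and the MAC-1+ samples lay on both sides of them. Psmb10, which takes the place of Psmb7, was the only gene of the set with a log2 fold change below 0, at -0.40 (SE 0.38, adjusted p = 0.752), with 182, 170.2 and 269 CPM in MAC-1- and 139.5, 219 and 111 CPM in MAC-1+ samples.

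SS MAC-1- replicate 3 stood apart in this group of genes, though not in these genes alone. It had 17576 genes detected, the most of the 16 samples, against 14658 and 15053 in the other SS MAC-1- samples. Its Psmb9 level was 17.1 CPM, against 153 and 142 CPM in the other SS MAC-1- samples, and its Psmb8 level was 275 CPM against 499 and 498 CPM. Across the populations Psmb8 ranged from 275 to 676 CPM, with the highest value in an SS MAC-1low sample. Psmb10 had its highest population mean in SS MAC-1low and its lowest in 4 week MAC-1+ HSCs, at a ratio of 1.56.

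The share of immunoproteasome over constitutive subunit can be read as a ratio of counts within a sample, compared by exact two-sided permutation tests on log2 ratios and adjusted over the 6 tests made. Psmb8/Psmb5 was higher by 0.74 on the log2 scale in 4 week MAC-1+ than in MAC-1- samples, Psmb9/Psmb6 by 0.72 and Psmb10/Psmb7 by 0.80. The last value rested on 1 sample, as Psmb10/Psmb7 was 3.39, 9.39 and 1.53 in MAC-1+ and 2.19, 2.13 and 1.97 in MAC-1- samples, and without 4 week MAC-1+ replicate 2 the difference was 0.12. None passed the threshold of 0.05, and with 3 against 3 samples the smallest p possible was 0.1 (exact permutation p = 0.1, 0.2 and 0.4, adjusted 0.3, 0.4 and 0.6). Constitutive Psmb5, Psmb6 and Psmb7 had log2 fold changes of -0.53, -0.61 and -1.13 in that comparison, none of them called (adjusted p = 0.625, 0.134 and 0.278).

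Psmb9/Psmb6 was also compared between the 10 samples of 4 week and the 6 samples of SS HSCs. It was 0.145, 0.127 and 0.0172 in SS MAC-1- and 0.182, 0.0839 and 0.0970 in SS MAC-1low samples. At 4 weeks it was 0.175, 0.164 and 0.117 in MAC-1-, 0.243, 0.231, 0.191 and 0.134 in MAC-1low and 0.329, 0.172 and 0.265 in MAC-1+ samples. The 4 week samples were higher by 1.13 on the log2 scale, or 2.19-fold, with overlap (exact permutation p = 0.00824, adjusted 0.0495). Without SS MAC-1- replicate 3 the difference was 0.66 (adjusted p = 0.132, exact permutation test), and the 4 week samples include the MAC-1+ population that SS lacks. Psmb8/Psmb5 and Psmb10/Psmb7 differed by 0.12 and -0.05 between 4 week and SS samples (exact permutation p = 0.584 and 0.810, adjusted 0.701 and 0.810).

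**Figure D3:**
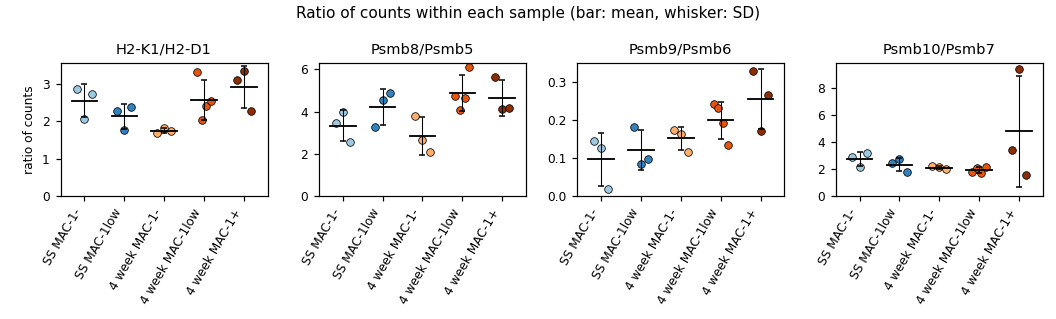
Ratios of counts within each sample (points) for H2-K1/H2-D1, Psmb8/Psmb5, Psmb9/Psmb6 and Psmb10/Psmb7 in the 5 HSC populations. H2-K1/H2-D1 lies at 1.69 to 1.83 in 4 week MAC-1- samples, below all other 4 week samples, and Psmb9/Psmb6 is lowest, at 0.0172, in SS MAC-1- replicate 3.

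Nlrc5, the class I transactivator, had 40.8, 75.8 and 65.9 CPM in 4 week MAC-1- and 100.1, 45.0 and 69.5 CPM in 4 week MAC-1+ samples, with overlap and no call (log2 fold change 0.23, SE 0.56, adjusted p = 0.942). Its 4 week MAC-1low samples had 45.9 to 75.8 CPM and its SS MAC-1low samples 21.4 to 87.9 CPM. The highest level of Nlrc5 was 218 CPM in SS MAC-1- replicate 3, the sample with the lowest Psmb9 level. The other SS MAC-1- samples had 79.0 and 49.9 CPM.

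Cd74, the class II invariant chain, had the largest fold change of the 10 genes when MAC-1+ was set against MAC-1- at 4 weeks. It had 9.73, 13.6 and 51.6 CPM in 4 week MAC-1-, 177, 314, 155 and 251 CPM in 4 week MAC-1low and 538, 566 and 399 CPM in 4 week MAC-1+ samples. As for H2-K1, the 3 groups followed the order of MAC-1 without overlap, an order whose share over all genes was not computed. SS samples lay between, with 146, 109 and 96.8 CPM in MAC-1- and 336, 105 and 146 CPM in MAC-1low. Means were 25.0 ± 23.2 CPM (SD, n = 3) in 4 week MAC-1-, 224 ± 72.8 CPM (SD, n = 4) in MAC-1low and 501 ± 89.5 CPM (SD, n = 3) in MAC-1+ HSCs.

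Cd74 was 20.1-fold higher in MAC-1+ HSCs than in MAC-1- HSCs at 4 weeks (log2 fold change 4.33, SE 0.61, 95% interval 3.02 to 5.64, adjusted p = 0.00208). The call held when each of the 16 samples was left out in turn, with log2 fold changes of 3.95 to 5.43. The largest came without 4 week MAC-1- replicate 3, whose 51.6 CPM was the highest of its group. Without 4 week MAC-1+ replicate 3, rich in neutrophil mRNA, and SS MAC-1- replicate 3 together, an alternative added after the data were seen, Cd74 was higher by 4.50 (adjusted p = 0.0098) and H2-K1 by 0.88 (adjusted p = 0.0392).

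Cd74 was the 1 gene of the set called between 4 week MAC-1low and MAC-1- HSCs, where 0.278% of all genes were called. It was 8.98-fold higher in MAC-1low (log2 fold change 3.17, SE 0.57, adjusted p = 0.0455). The call was lost without 4 week MAC-1- replicate 1 (adjusted p = 0.168), 4 week MAC-1- replicate 2 (adjusted p = 0.282) or 4 week MAC-1low replicate 4 (adjusted p = 0.102), and in a fit of the 7 samples compared (adjusted p = 0.160), while the log2 fold change stayed at 2.79 or above. H2-K1 and Cd74 were without overlap between these groups, as were 10.8% of all genes. This comparison and that of MAC-1+ with MAC-1- HSCs share the 4 week MAC-1- samples.

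Between 4 week MAC-1+ and MAC-1low HSCs none of the 10 genes was called by edgeR, nor was any gene (0% of 13661). Unadjusted, 2 of the 10 had a p below 0.05 in edgeR, as did 6.85% of all genes. DESeq2 called 1 of the 10, H2-K1 (log2 fold change 0.57, adjusted p = 0.0279), beside 452 of 14274 genes in all. For Cd74 the log2 fold change was 1.16 (SE 0.50, adjusted p = 0.702). H2-K1, Tap1 and Cd74 were higher in MAC-1+ without overlap, as 8.23% of all genes were without overlap in 1 direction or the other.

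In SS HSCs, where the question was whether MAC-1low cells differ from MAC-1- cells without transplantation, 0 of the 10 genes were called by edgeR, DESeq2 or limma-voom, 0 had an unadjusted p below 0.05 and 0 were without overlap. Over all genes edgeR called 0.0146%, DESeq2 called 936 of 13806 and limma-voom 0. Unadjusted, 9.36% of all genes had a p below 0.05 in edgeR, and 11.3% were without overlap. The log2 fold change of Cd74 was 0.74 (SE 0.54, adjusted p = 0.750). The log2 fold change of MAC-1low against MAC-1- at 4 weeks minus the same in SS was 2.43 for Cd74 (SE 0.75, adjusted p = 0.432). For H2-K1 it was 0.50 (SE 0.23, adjusted p = 0.556). Neither fold change was thus shown to differ between 4 week and SS HSCs by edgeR, while DESeq2 called Cd74 (adjusted p = 0.0596) beside 753 of 14274 genes in all. In this interaction 0.0586% of all genes were called.

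Of the MAC-1- HSCs, those at 4 weeks had less of both genes than those in SS, but neither was called. H2-K1 had a log2 fold change of -0.47 (SE 0.17, adjusted p = 0.375) and Cd74 of -2.23 (SE 0.56, adjusted p = 0.166). Both were without overlap, as were 16.6% of all genes. None of the 10 genes was called by edgeR (0.432% of all genes were). These 2 had an unadjusted p below 0.05, as did 10.4% of all genes, and DESeq2 called both, beside 1078 of 13806 genes in all. Between 4 week and SS MAC-1low HSCs none of the 10 was called by edgeR, DESeq2 or limma-voom (edgeR called 0.0439% of all genes, and DESeq2 657 of 14274). Of the 10, 0 had an unadjusted p below 0.05, against 8.89% of all genes, and 0 were without overlap, against 10.4% of all genes. With MAC-1- and MAC-1low averaged, 4 week against SS HSCs gave 0 calls among the 10 by edgeR, DESeq2 or limma-voom (edgeR called 0.864% of all genes, and DESeq2 1324 of 13806). Of the 10, 1 had an unadjusted p below 0.05, against 12.6% of all genes.

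Against SS MAC-1- HSCs, 4 week MAC-1+ HSCs had a called difference in Cd74 alone (log2 fold change 2.10, SE 0.56, 4.27-fold, adjusted p = 0.0882), where 2.36% of all genes were called. That call was weak, since it was kept in 4 of the 16 fits that left out 1 sample, namely those without SS MAC-1low replicate 1, SS MAC-1low replicate 2, 4 week MAC-1- replicate 1 or 4 week MAC-1- replicate 3. H2-K1 had a log2 fold change of 0.49 (SE 0.17, adjusted p = 0.197). Tap1 and Cd74 were without overlap here, as were 17% of all genes. Against SS MAC-1low HSCs none of the 10 was called (1.42% of all genes were). Unadjusted, 2 of the 10 had a p below 0.05, against 12.1% of all genes, and DESeq2 called 1, beside 1299 of 13806 genes in all. The log2 fold changes were 0.57 for H2-K1 (SE 0.17, adjusted p = 0.161) and 1.36 for Cd74 (SE 0.54, adjusted p = 0.345). Over all 5 populations at once, the F test called Cd74 (adjusted p = 0.016) and H2-K1 (adjusted p = 0.0642) of the 10, and 2.22% of all genes. The call of H2-K1 in the F test was lost without 4 week MAC-1- replicate 1 or 3, or without 4 week MAC-1+ replicate 2 or 3 (adjusted p = 0.152 to 0.173).

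Of the markers listed for other cells that carry class II, some were at or near 0 and others were expressed. Of 7 B cell genes, Cd79a had at most 0.41 CPM, Ms4a1 0.16 CPM and Pax5 0.15 CPM. Their summed level, nearly all from Cd79b, was 15.9 to 119 CPM in 4 week MAC-1+ samples, with a median of 17.05 CPM. In 4 week MAC-1- samples it was 6.40 to 38.5 CPM, with a higher median of 33.7 CPM. The sum was 32.6 to 62.7 CPM in 4 week MAC-1low, 56.3 to 111.9 CPM in SS MAC-1- and 6.60 to 172.3 CPM in SS MAC-1low samples. Of 8 dendritic cell genes, Itgax had at most 0.11 CPM and Siglech 0.10 CPM, and the summed level, mostly from Flt3, Zbtb46 and Clec9a, was 5.18 to 23.9 CPM in 4 week MAC-1+, 20.2 to 34.8 CPM in 4 week MAC-1low and 3.08 to 6.41 CPM in 4 week MAC-1- samples. Flt3, which progenitors also express, was the only one of the 3 tested dendritic genes to be called in any comparison, as higher in 4 week MAC-1+ than in SS MAC-1- HSCs (5.04 on the log2 scale, adjusted p = 0.0882). Of 8 monocyte and macrophage genes, Csf1r, Cd14, Adgre1 and Fcgr1 stayed at or below 0.22 CPM, and the sum stayed at or below 0.308 CPM except for 110.4 CPM in 4 week MAC-1+ replicate 3, of which Ly6c2 made up 108 CPM. The fall in platelet and megakaryocyte genes along MAC-1 moved with Cd74 and H2-K1 (Pf4 -5.25 on the log2 scale, adjusted p = 4.5e-05). So did a rise in genes of the HSC list, of which 5 of 6 were called as higher, Ly6a (2.16) and Procr (3.57) among them. The remaining gene of that list was not above 0, and over all genes 3.25% were called and 1.19% as higher. Neutrophil genes were also higher in 4 week MAC-1+ than in MAC-1- HSCs, with 5 of 5 tested above 0 and a median of 5.94 on the log2 scale. Of these, 2 were called, where 3.25% of all genes were called. The 7 T and NK cell genes, nearly all Nkg7 in these samples, summed to 323 to 644 CPM in 4 week MAC-1- and to at most 176 CPM in 4 week MAC-1+ HSCs, and Nkg7 fell (-2.51 on the log2 scale, adjusted p = 0.0643). The part of these lists in the results was not tested.

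Class II genes, the partners of the invariant chain, were read out beside Cd74. Of 14 on the list, 11 were tested, and H2-Aa alone was called, as higher in MAC-1+ than MAC-1- at 4 weeks (log2 fold change 1.86, SE 0.42, adjusted p = 0.0351), while the median of the list was 0.84 with 10 of 11 above 0. H2-Aa, the class II alpha chain, had 89.1, 48.8 and 85.3 CPM in 4 week MAC-1-, 215, 202, 114 and 135 CPM in MAC-1low and 265, 385 and 163 CPM in MAC-1+ samples. Its call was lost without 4 week MAC-1+ replicate 2 or 4 week MAC-1- replicate 2. H2-Aa in SS MAC-1- samples, at 248, 129 and 113 CPM, reached the range of 4 week MAC-1+ samples. In SS MAC-1low samples H2-Aa had 95.6, 52.0 and 111 CPM, all lower than any of the MAC-1+ samples (a log2 fold change of 1.65 for the latter, adjusted p = 0.0996).

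The beta chains gave no call. H2-Ab1 had 53.1, 33.7 and 32.8 CPM in 4 week MAC-1- and 103, 65.9 and 45.5 CPM in 4 week MAC-1+ samples (log2 fold change 0.84, adjusted p = 0.797). H2-Eb1 had 17.2, 2.35 and 30.9 CPM and 31.3, 21.6 and 28.6 CPM in the same groups (log2 fold change 0.69, adjusted p = 0.929). Ciita, the class II transactivator, had at most 0.11 CPM in any sample and was not tested.

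Of the class I genes outside the set, none was called for MAC-1+ against MAC-1- at 4 weeks. Among other heavy chains 12 of 17 were tested, with 10 of 12 log2 fold changes above 0 and a median of 0.61. Among 10 genes of peptide supply and loading the median was -0.03, and Tap2, the partner of Tap1, was at 1.34 (adjusted p = 0.639). Of 6 genes of the constitutive proteasome and its assembly 0 were called in this comparison, with a median of -0.58 and 0 above 0. Psmb6 fell in 4 week MAC-1+ HSCs against SS MAC-1- (log2 fold change -0.75, adjusted p = 0.0745) and SS MAC-1low HSCs (log2 fold change -0.88, adjusted p = 0.0594).

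Transcription factors that act on MHC genes were a further list, with 16 of 17 tested. Irf2, an interferon regulatory factor that binds the response element shown in B2m, was the only one called, at 36.7, 34.1 and 34.7 CPM in 4 week MAC-1- and 117, 156 and 108 CPM in 4 week MAC-1+ samples (log2 fold change 1.85, SE 0.36, adjusted p = 0.0133). The call of Irf2 was kept in all 16 fits with 1 sample left out. Irf1 had 29.5, 14.3 and 31.5 CPM and 101, 82.0 and 97.3 CPM in these groups, without overlap, but was not called (log2 fold change 1.90, SE 0.63, adjusted p = 0.177). Between these groups 21.7% of all genes were without overlap. Irf8 was too variable to read (log2 fold change 4.02, SE 2.67, adjusted p = 0.577). The 7 interferon receptors and kinases gave no call in this comparison, and Jak1, a kinase of interferon receptors, was called as higher in 4 week MAC-1+ than in SS MAC-1- HSCs (at 1.08 on the log2 scale, adjusted p = 0.0595).

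Interferon gamma-responsive GTPases, which mark a response to interferon in many cells, gave 6 calls of 14 tested, all higher in MAC-1+ against MAC-1- at 4 weeks. Over all genes 3.25% were called and 1.19% as higher. The median log2 fold change was 2.07 and 14 of 14 were above 0, against 0.07 and 52.4% over all genes. The list was chosen with earlier results of these data known, so these shares are not a test of it. Gbp2 had 17.1, 47.2 and 48.7 CPM in MAC-1- and 335, 138 and 154 CPM in MAC-1+ samples (log2 fold change 2.47, adjusted p = 0.0186). Gbp8 had 0, 4.25 and 15.8 CPM and 317, 219 and 259.8 CPM (log2 fold change 5.31, adjusted p = 0.0215). Both were without overlap, as were 21.7% of all genes, and neither gene reached the MAC-1+ level in any SS MAC-1- sample. Iigp1 had 86.7, 59.6 and 96.9 CPM in MAC-1- and 339.7, 323 and 521 CPM in MAC-1+ samples (log2 fold change 2.28, adjusted p = 0.0327). Tgtp1 (log2 fold change 1.65, adjusted p = 0.0439) and Gbp4 (log2 fold change 5.35, adjusted p = 0.0569) were also called. Gbp4, Gbp8 and Gbp9 overlap on the minus strand of chromosome 5, so the calls of Gbp4 and Gbp8 may not be independent.

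The count of GTPases called depended on single samples. It was 2 without 4 week MAC-1- replicate 2, 3 without 4 week MAC-1- replicate 1 or 4 week MAC-1+ replicate 2, and at most 7 in any fit with 1 sample left out, and Gbp2 was called in each of these fits. Iigp1 was called in 4 week MAC-1+ HSCs also against SS MAC-1- (log2 fold change 2.30, adjusted p = 0.0461) and SS MAC-1low (log2 fold change 2.44, adjusted p = 0.0581) HSCs. No other GTPase was called in those comparisons.

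**Figure D4:**
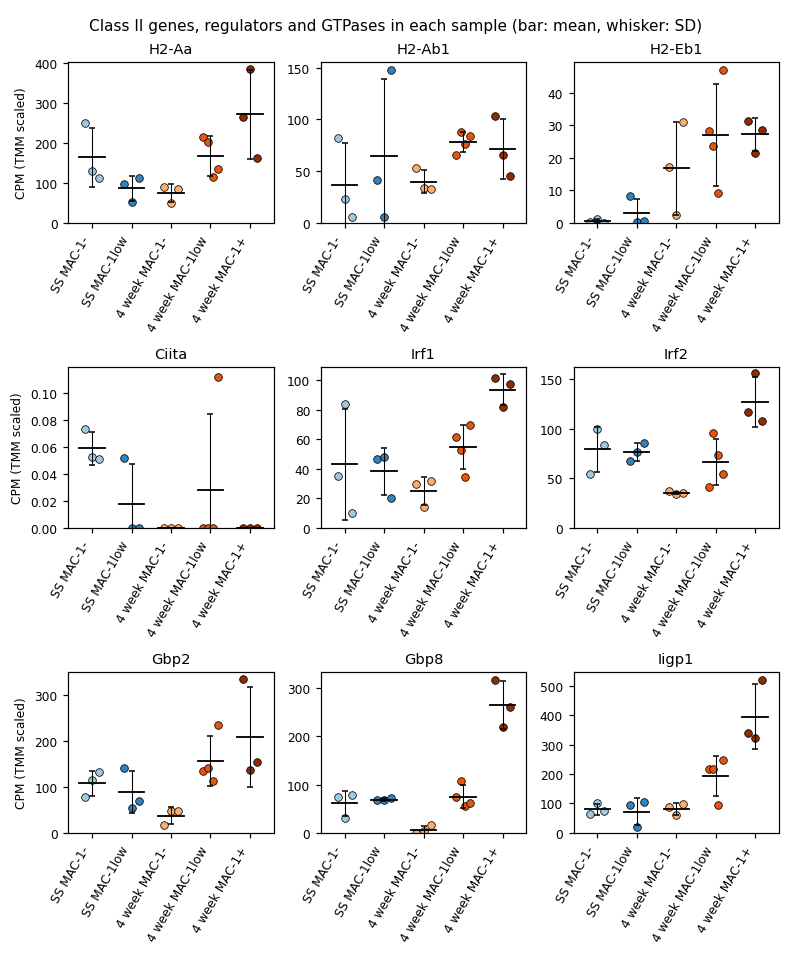
CPM in each sample (points) of class II genes (H2-Aa, H2-Ab1, H2-Eb1), the regulators Ciita, Irf1 and Irf2 and the GTPases Gbp2, Gbp8 and Iigp1 in the 5 HSC populations. The 3 samples of 4 week MAC-1+ HSCs lie above the 3 samples of 4 week MAC-1- HSCs for H2-Aa, Irf1, Irf2, Gbp2, Gbp8 and Iigp1, and Ciita is near 0 throughout. Between these 4 week groups 21.7% of all genes were without overlap.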

How the data were processed

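RNA of sorted HSCs was amplified with SMART-Seq v4 and made into Nextera XT libraries, a protocol that does not mark strand. The authors deposited 1 table of raw read counts per gene, aligned by STAR within release 1.4.2 of nf-core's RNA-seq workflow. Genome build, annotation and counting tool were not given in the sources used here. All 16 samples were grouped by title. The members and lists were chosen with earlier results of these data known. All 10 members are named, with, of each pathway list, at most the 5 genes of smallest p below an adjusted 0.1, besides partner genes set by name. Genes were filtered with filterByExpr, scaled by TMM and tested over all 13661 genes with edgeR 4.0.16 (quasi-likelihood, 1 fit over all samples), which was tested on simulated data. SEs are the absolute log2 fold change over the square root of F. Ratios used exact permutation tests (scipy 1.17.1). Alternatives were DESeq2 1.42.0, limma-voom (limma 3.58.1), DESeq2 size factors, no filter, only the groups compared, a replicate block, stricter thresholds, summed heavy chains, a pseudocount of 1 for the ratios and leaving out each sample. Leaving out 2 samples together, the H2-K1/H2-D1 ratio and leave-outs of the pathway lists were chosen after seeing the data. Total counts were 13781278 to 28580658, so that counting error was small beside the spread between samples. Gene positions and exon lengths came from GENCODE M21. The table's columns were all used. A few genes of the lists are not reported here.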

Additional observations from a re-analysis of the deposited data

How the results depend on the processing

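No called gene of the set changed sign under any alternative, and 130 of 2250 recomputed fold changes of its genes did, all in genes not called. For MAC-1+ against MAC-1- at 4 weeks the count of called genes was 2, and 1 (Cd74) when the fit held only the groups compared or when the absolute log2 fold change had to exceed 1. Over all genes that comparison gave 444 calls with edgeR, 1605 with DESeq2, 891 with limma-voom and 154 in the fit of the groups compared. For MAC-1low against MAC-1- at 4 weeks the count of 1 fell to 0 in the fit of the groups compared, and to 0 to 1 when single samples were left out, and over all genes 38 calls became 557 with DESeq2, 319 with limma-voom and 17 in the fit of the groups compared. With the replicate number as a block, the count was 0 for MAC-1low (Cd74, log2 fold change 3.29, adjusted p = 0.213), with 9 calls over all genes, and the count in the set did not move in the other 4 comparisons where a block could be fitted. Deviations of same-numbered samples correlated at -0.0011 to 0.040 at 4 weeks (9 pairs) and 0.0035 to 0.0096 in SS (3 pairs). No label says that a number marks 1 mouse, and the tube numbers of the samples could imply another pairing, which was not fitted. Neither the block nor these correlations can settle whether samples were paired. DESeq2 called 1 gene in 4 week MAC-1+ against MAC-1low, 2 in 4 week against SS MAC-1-, 3 (H2-K1, Tap1 and Cd74) in 4 week MAC-1+ against SS MAC-1-, 1 against SS MAC-1low and 1 in the interaction (Cd74, adjusted p = 0.0596), where it called 452 of 14274, 1078, 1703 and 1299 of 13806 and 753 of 14274 genes in all. The call of Cd74 against SS MAC-1- became 0 without the filter, at an adjusted p below 0.05 and without 4 week MAC-1+ replicate 3 and SS MAC-1- replicate 3 together, and single leave-outs gave 0 to 1. Single leave-outs gave 0 to 1 calls also for 4 week against SS MAC-1- (1 without 4 week MAC-1- replicate 3, Cd74), for 4 week MAC-1+ against SS MAC-1low (1 without 4 week MAC-1+ replicate 1, H2-K1) and for the averaged time effect. In the F test over all populations, 2 calls became 1 (Cd74) at an adjusted p below 0.05 and without those 2 samples, and 1 to 2 in single leave-outs. Values near 0 turned sign in the MAC-1+ against MAC-1- comparison at 4 weeks. H2-D1 was at -0.0060 without the 2 samples and at -0.0088 to 0.50 in single leave-outs, and B2m at -0.029 with limma-voom and at -0.11 to 0.24 in single leave-outs. Psmb9 ranged from -0.026 to 0.50 and Nlrc5 from -0.085 to 0.51 in single leave-outs. Between 4 week and SS samples, leaving out 1 sample gave differences of 0.66 to 1.34 for Psmb9/Psmb6 and of -0.27 to 0.023 for Psmb10/Psmb7 on the log2 scale. The scarce genes Tap1, Tapbp and Nlrc5 had SEs of 0.64, 0.59 and 0.56 for MAC-1+ against MAC-1- at 4 weeks, against 0.17 for H2-K1, so only larger differences were detectable in them. The cause of these moves was not tested.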
